A study of Homo sapiens with 9 samples.

Results

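siTDRD9-2 and siTDRD9-1 are different siRNAs against the same transcript, *TDRD9*, and the arrays of both were compared here with each other. The 6 arrays were chosen by their labels, 3 with siTDRD9-2 and 3 with siTDRD9-1, out of 9 in the series. All came from NCI-H1993, an established human lung adenocarcinoma cell line that expresses *TDRD9*, harvested 72 h after transfection with Oligofectamine. Each array was hybridized with the RNA of 1 of 3 independent transfections per siRNA. The remaining 3 arrays, from NCI-H1993 cells transfected with the non-targeting siControl, were used to tell which siRNA had moved a gene. All cultures, siControl included, received an siRNA and the reagent, and a single cell line was used.

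TDRD9 is a Tudor-domain protein with an RNA helicase domain. In mouse germ cells it works with Piwi proteins, which are guided by small RNAs called piRNAs, in the silencing of retrotransposons. An siRNA is loaded into an Argonaute protein and directs the cleavage of transcripts that match it. Because an siRNA can also act on transcripts that match it in part, a gene is commonly tested with more than 1 siRNA, and changes shared by them are set apart from changes seen with a single sequence.

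Expression was measured with Affymetrix PrimeView arrays, on which a transcript is read by sets of short probes, and values are log2 signals, so that a difference of 1 is a 2-fold difference. Of 49395 probe sets, 49293 were tested and 102 were controls of the array. Pairs of arrays correlated at 0.994 to 0.998 within siTDRD9-2, at 0.994 to 0.997 within siTDRD9-1 and at 0.990 to 0.995 between them. The poly-A spike-ins, bacterial transcripts added to each RNA sample, averaged 7.66 ± 0.10 with siTDRD9-2 and 7.60 ± 0.19 with siTDRD9-1 (SD, n = 3 each; exact permutation test, two-sided, p = 0.8), and 8.35 ± 0.13 with siControl. The 18S rRNA probe sets were at 13.9 with either siTDRD9 siRNA (p = 0.9 in the same exact test) and at 13.1 with siControl. The siTDRD9 arrays were thus alike in these controls and stood apart from siControl, and the part of that gap in the values against siControl was not tested. Of the 102 control probe sets, 0 passed an FDR of 0.01 between siTDRD9-2 and siTDRD9-1 in limma and 3 had an unadjusted p under 0.05. Epithelial markers were high throughout: the cell adhesion gene *EPCAM* was at 12.19 with siTDRD9-2 and 12.29 with siTDRD9-1, and the cytokeratin gene *KRT7* at 12.92 with siTDRD9-2 and 12.93 with siTDRD9-1. The lung markers *NKX2-1* and *SFTPB* were low, at 6.33 and 5.15 with siTDRD9-2, against 6.10 and 5.22 with siTDRD9-1.

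The transcript targeted by both siRNAs differed between them. *TDRD9*, read by 1 probe set, gave 6.12, 6.12 and 6.05 in the siTDRD9-2 cultures, against 4.94, 4.64 and 4.28 in the siTDRD9-1 cultures and 6.65, 6.80 and 6.93 in the siControl cultures. The 3 groups did not overlap, and siTDRD9-1 cultures were the lowest. The signal was 1.48 higher on the log2 scale with siTDRD9-2 than with siTDRD9-1 (standard error 0.144, adjusted p = 0.000426 in limma), a ratio of 2.79. It passed in each fit with 1 culture left out, with differences of 1.31 to 1.64. The exact permutation test gave p = 0.1, two-sided, the smallest that 3 cultures against 3 allow. Fewer transcripts per cell and fewer cells with the transcript cannot be told apart in bulk RNA. Of 22 measured genes for Tudor and piRNA factors, *TDRD9* alone passed an FDR of 0.01, and the median difference of this list was -0.02. The Piwi gene *PIWIL4*, for example, differed by 0.01 (adjusted p = 0.97). None of 16 genes for Argonaute proteins and small RNA processing passed in limma, with a median of -0.04. In each direction 1 had an unadjusted p under 0.05, beside 10.3% of all genes as higher and 11.0% as lower.

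Between siTDRD9-2 and siTDRD9-1, 151 probe sets differed at an FDR under 0.01 by at least 2-fold, which is 0.306% of those tested. Of these, 55 were higher with siTDRD9-2 (0.112%) and 96 were lower (0.195%). They covered 99 genes (0.546% of 18132), 36 higher (0.199%) and 63 lower (0.347%), and no gene was called in both directions. The largest difference was 1.85 in size, at *SPINK1*. All 151 had siTDRD9-2 and siTDRD9-1 arrays that did not overlap, as did 23.3% of all probe sets tested. The probe set of *MINDY2* lay just inside the 2-fold limit, at 1.001, and a probe set of *ZFR* just outside, at 0.999. A further 13 probe sets differed by 2-fold without passing the FDR. Without the fold minimum, 963 probe sets passed the FDR (1.95%), 454 higher (0.921%) and 509 lower (1.03%).

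The count without a fold minimum depended on the siControl arrays, which add to the estimate of the spread, and on single siTDRD9 cultures. In a fit of the 6 siTDRD9 arrays alone, 274 probe sets passed an FDR of 0.01, and 110 passed with the 2-fold minimum, all among the 151. The count without the minimum was 391, 358 and 595 without siTDRD9-2 culture 1, 2 and 3, and 274, 443 and 743 without siTDRD9-1 culture 1, 2 and 3. It was 680, 592 and 743 without siControl culture 1, 2 and 3. Single siTDRD9-1 cultures also moved the split: 62 and 58 probe sets were called lower without siTDRD9-1 culture 1 and 2, and 135 without culture 3. Without culture 2, the 58 lower calls stood against 61 higher calls. None of the 151 differences changed sign under any of these settings.

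**Figure D1:**
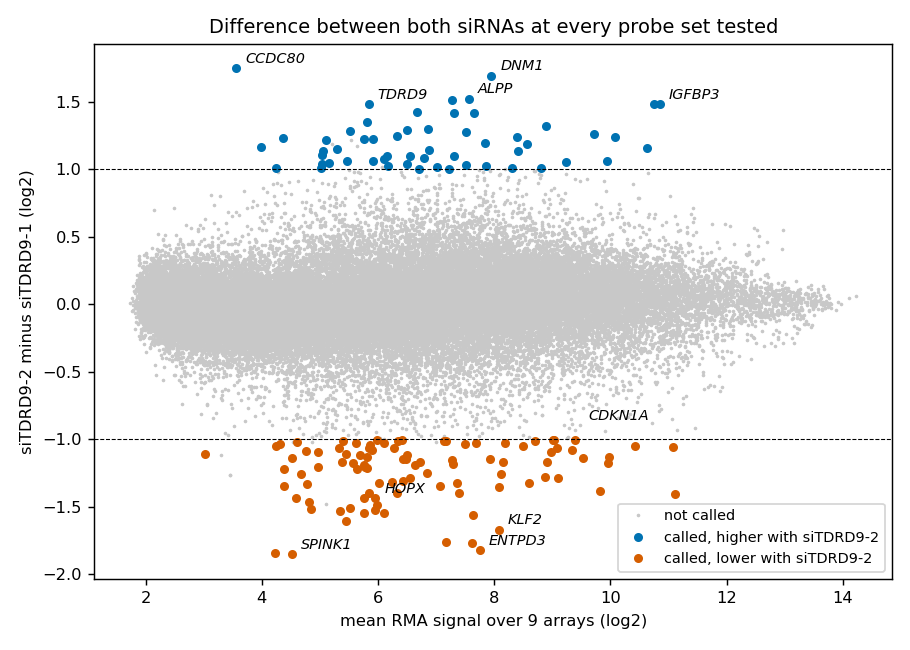
Difference siTDRD9-2 minus siTDRD9-1 (y axis, log2) against the mean signal over 9 arrays (x axis, log2), 1 point per probe set tested. The 55 probe sets called higher with siTDRD9-2 (blue) and the 96 called lower (orange) lie beyond the dashed 2-fold lines and are spread over the range of signal, with a median signal of 6.49 against 5.78 for all probe sets tested.

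The siControl arrays showed on which side a difference arose. Of the 151 probe sets, 72 differed from siControl at an FDR under 0.01 only with siTDRD9-2, 38 only with siTDRD9-1, 4 with both in the same direction and 5 with both in opposite directions, while 32 passed with neither. For comparison, 5.19% of all probe sets passed for siTDRD9-2 against siControl and 4.54% for siTDRD9-1 against siControl. These comparisons share the siControl arrays, so the counts are a description. In 111 of the 151, the siControl mean lay between the means of both other groups. It lay nearer to siTDRD9-2 in 56 and nearer to siTDRD9-1 in 95. The 5 probe sets that moved in opposite directions read *FKBP14*, *RDM1* (2 of them), *DNM1* and *ESAM*.

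**Figure D2:**
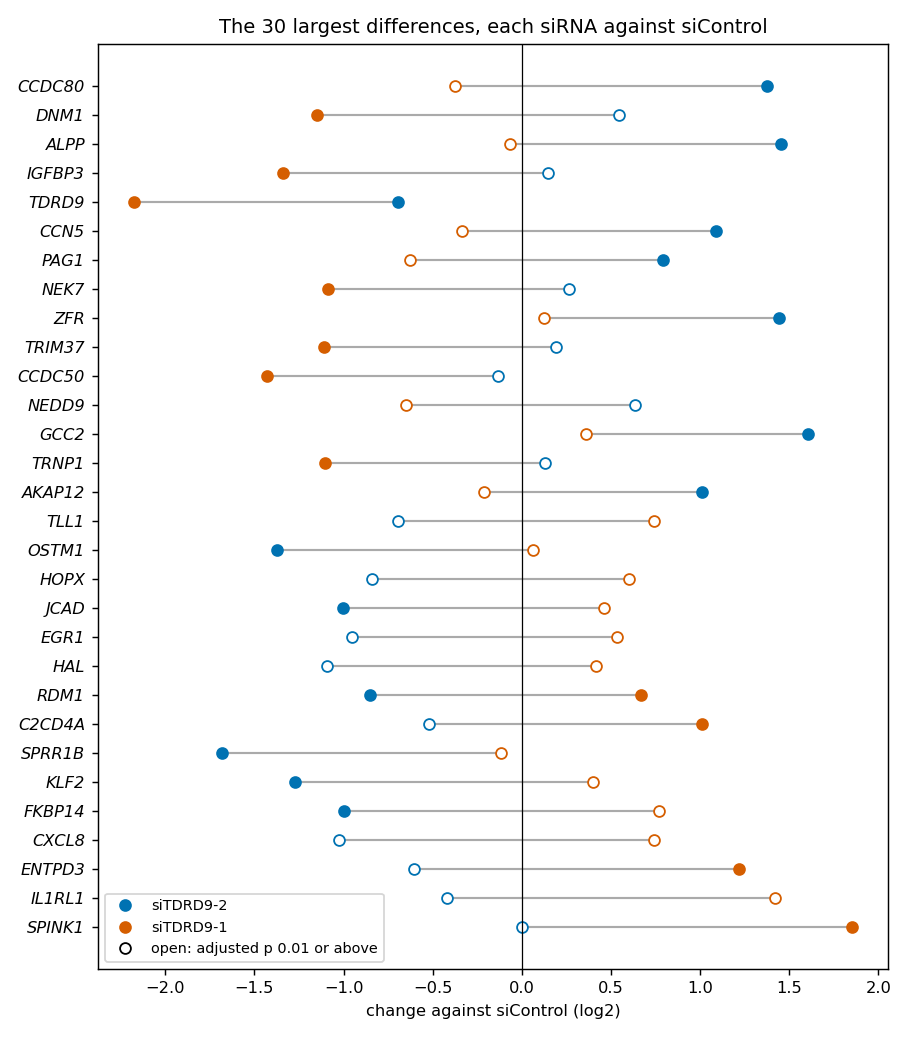
Change against siControl (x axis, log2) with siTDRD9-2 (blue) and siTDRD9-1 (orange) for the 15 genes with the largest positive and the 15 with the largest negative difference between them, each at its called probe set of largest difference. Filled points passed an FDR of 0.01 against siControl. *SPRR1B* moved with siTDRD9-2 (-1.68) and hardly with siTDRD9-1 (-0.11), *SPINK1* the other way round (-0.00 and 1.85), and *RDM1* lay at -0.85 and 0.67.

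The marker genes of this comparison differed in several ways. The first was a gene that moved with siTDRD9-1 alone. *CDKN1A*, the p53 target that encodes the CDK inhibitor p21, gave 9.11, 9.12 and 9.17 with siTDRD9-2, 9.99, 10.25 and 9.84 with siTDRD9-1, and 9.16, 9.29 and 9.29 with siControl. The siTDRD9-2 cultures thus overlapped with siControl and the siTDRD9-1 cultures above every other culture. It was lower with siTDRD9-2 by 0.90 (standard error 0.108, adjusted p = 0.00103), and its second probe set by 0.82 (adjusted p = 0.00161, and 0.0108 with the 6 arrays alone).

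The rest of the p53 program did not follow in 1 direction. Read at 1 probe set per gene, the brightest, 432 of 18132 genes passed an FDR of 0.01 (2.38%), 1.11% higher and 1.27% lower. Of 28 measured p53 targets, 2 were higher and 2 lower, and their median was -0.09 against -0.02 over all genes. Like *CDKN1A*, the translesion polymerase gene *POLH* was lower with siTDRD9-2 than with siTDRD9-1, by 0.59. *PLK2*, a kinase, was higher by 0.68 and *XPC*, the damage sensor of nucleotide excision repair, by 0.47. Their adjusted p were 0.0034, 0.00263 and 0.00888, and 0.0172, 0.0137 and 0.0313 with the 6 arrays alone. Whichever culture was left out, 0 or 1 targets were higher, and 1 was lower without siTDRD9-2 culture 1 or 2 or siTDRD9-1 culture 1 or 2. The death receptor gene *FAS* differed by -0.74 (adjusted p = 0.0145) and *MDM2*, whose product degrades p53, by 0.04 (adjusted p = 0.954). *CDKN1A* was also the single member of 29 G1 cyclin and CDK inhibitor genes that passed (0 higher, 1 lower), with a median of 0.04.

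The second kind was a gene with siControl between both siRNAs. *DNM1* encodes dynamin 1, a GTPase that pinches off endocytic vesicles. Its brightest probe set gave 8.71, 8.58 and 8.79 with siTDRD9-2, 7.27, 6.95 and 6.78 with siTDRD9-1, and 8.13, 8.15 and 8.17 with siControl. The siTDRD9-2 cultures were the highest and the siTDRD9-1 cultures the lowest, with siControl between. The difference was 1.69 (standard error 0.121, adjusted p = 0.0001), and a second probe set differed by 1.52. At the brightest probe set the change against siControl did not pass with siTDRD9-2 (0.54, adjusted p = 0.0133) and passed with siTDRD9-1 (-1.15, adjusted p = 0.000218), and at the second probe set alone did both pass (0.51, adjusted p = 0.00541, with siTDRD9-2, and -1.01, adjusted p = 0.000126, with siTDRD9-1). The remaining, dimmer probe set of the gene differed by -0.05 (adjusted p = 0.903). Among the other dynamin genes, *DNM2* differed by 0.30 (adjusted p = 0.0734) and *DNM3* by 0.27 (adjusted p = 0.11). Of 48 dynamin and clathrin endocytosis genes, 2 were higher and 1 lower, beside 1.11% and 1.27% of all genes, with a median of 0.05. The others were *FCHO1*, for a membrane-bending protein of clathrin-coated pits (0.64, adjusted p = 0.00786, and 0.035 with the 6 arrays alone, and no longer past 0.01 when any culture other than siTDRD9-1 culture 3 was left out), and *PACSIN2*, for a protein that binds dynamin (-0.71, adjusted p = 0.000693).

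The third kind was a rise with siTDRD9-1 beside a smaller shift the other way that did not pass. *ENTPD3*, which encodes an enzyme of the cell surface that hydrolyzes nucleoside triphosphates, gave 6.84, 6.86 and 7.13 with siTDRD9-2, against 8.59, 8.95 and 8.76 with siTDRD9-1 and 7.28, 7.68 and 7.70 with siControl. All siTDRD9-2 cultures were below siControl and all siTDRD9-1 cultures above. The difference was -1.82 (standard error 0.139, adjusted p = 0.000121). Against siControl it was -0.61 with siTDRD9-2 (adjusted p = 0.0153) and 1.22 with siTDRD9-1 (adjusted p = 0.000363). The second probe set differed by -1.55 (adjusted p = 0.00372, and 0.0222 with the 6 arrays alone).

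The fourth kind was a rise with siTDRD9-2 alone. *ALPP*, for placental alkaline phosphatase, gave 8.41, 8.32 and 8.92 with siTDRD9-2, against 7.15, 6.97 and 6.97 with siTDRD9-1 and 6.97, 7.15 and 7.17 with siControl. The siTDRD9-1 and siControl cultures overlapped and the siTDRD9-2 cultures were all above them. The difference was 1.52 (standard error 0.143, adjusted p = 0.000372) and 1.42 at the second probe set (adjusted p = 0.000458). The other alkaline phosphatase genes did not pass: the brightest probe sets of *ALPG*, *ALPI* and *ALPL* differed by 0.04, -0.06 and -0.16, with adjusted p of 0.877, 0.823 and 0.57. *ALPP* and *ALPG* are close relatives in sequence, and signal shared between them was not tested. *ALPP* and *ENTPD3* were the only members of 21 alkaline phosphatase and ectonucleotidase genes that passed, in opposite directions, with a median of -0.13. Of all genes, 1.11% passed as higher and 1.27% as lower.

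**Figure D3:**
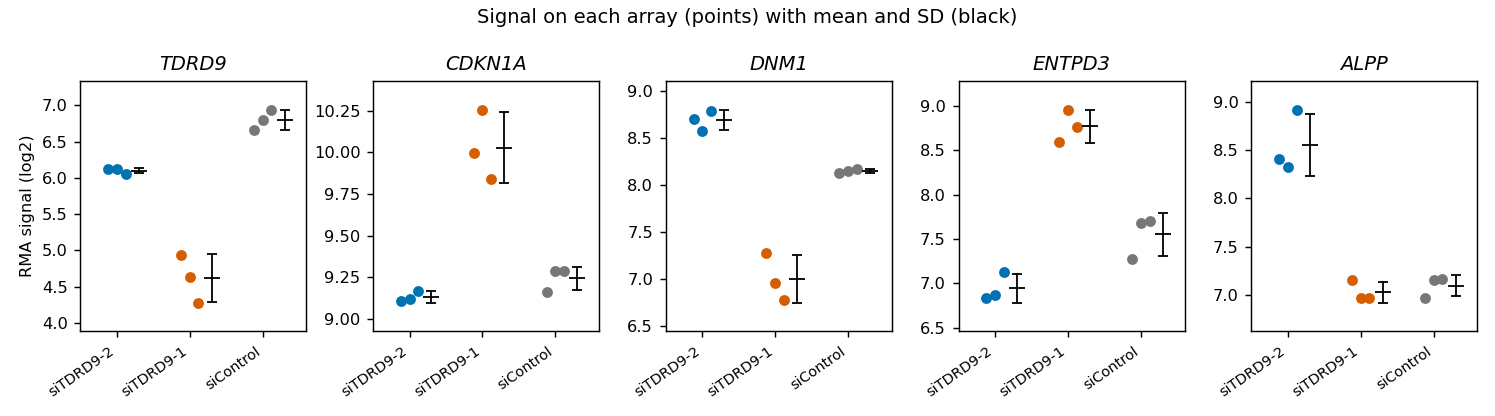
Log2 signal on each array (points) with the mean and SD of 3 arrays (black) for the marker genes, with siTDRD9-2, siTDRD9-1 and siControl from left to right. siTDRD9-2 lies above siTDRD9-1 for *TDRD9* (6.10 against 4.62), *DNM1* and *ALPP* and below it for *CDKN1A* and *ENTPD3*, and siControl sits at a different place in each panel.

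Among genes that fell with siTDRD9-2 and stayed near siControl with siTDRD9-1, were those for small proline-rich proteins. These are building blocks of the envelope that hardens squamous epithelial cells and their genes lie together on chromosome 1. *SPRR1B* gave 6.24, 6.49 and 6.91 with siTDRD9-2, against 8.11, 8.14 and 8.10 with siTDRD9-1 and 8.18, 8.24 and 8.28 with siControl, a difference of -1.57 (standard error 0.140, adjusted p = 0.000352). *SPRR3* gave 10.19, 10.13 and 10.77 with siTDRD9-2, against 11.83, 11.67 and 11.81 with siTDRD9-1 and 11.18, 11.14 and 11.25 with siControl, a difference of -1.41 (adjusted p = 0.000531). In both genes every siTDRD9-2 culture was below every other culture, and for *SPRR3* the siTDRD9-1 cultures were also above siControl, by 0.58 (adjusted p = 0.0281). *SPRR1A* differed by -1.40 (adjusted p = 0.000458) at its dimmer probe set and by -0.56 (adjusted p = 0.0125) at its brighter one. The members *SPRR2A*, *SPRR2B*, *SPRR2D*, *SPRR2E*, *SPRR2F*, *SPRR2G* and *SPRR4* had brightest probe sets with mean signals of 2.08 to 5.87 over the 9 arrays and differed by -0.15 to 0.05, with adjusted p of 0.466 or more. Involucrin, another envelope protein, differed by -0.17 (*IVL*, adjusted p = 0.528). These members other than *SPRR1B* were named after their values were seen, and signal shared between such related genes was not tested.

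The promoters of the SPRR genes that fell are shown with that of *CXCL8*, which was lower as well, because all hold the binding motif of AP-1, the Fos and Jun transcription factors. The sequences run from 250 bases before to 50 bases after the annotated start and come from RefSeq, build GRCh38.p14, plus strand, at chr1:153030953-153031252 (*SPRR1B*), chr1:152983831-152984130 (*SPRR1A*), chr1:153001499-153001798 (*SPRR3*) and chr4:73740319-73740618 (*CXCL8*). Capitals mark TGANTCA, which reads the same on both strands.
SPRR1B: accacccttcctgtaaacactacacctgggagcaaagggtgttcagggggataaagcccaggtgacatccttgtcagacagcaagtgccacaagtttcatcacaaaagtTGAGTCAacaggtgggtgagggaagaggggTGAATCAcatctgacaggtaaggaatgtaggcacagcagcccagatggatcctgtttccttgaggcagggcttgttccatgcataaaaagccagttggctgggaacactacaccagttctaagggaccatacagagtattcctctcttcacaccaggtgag
SPRR1A: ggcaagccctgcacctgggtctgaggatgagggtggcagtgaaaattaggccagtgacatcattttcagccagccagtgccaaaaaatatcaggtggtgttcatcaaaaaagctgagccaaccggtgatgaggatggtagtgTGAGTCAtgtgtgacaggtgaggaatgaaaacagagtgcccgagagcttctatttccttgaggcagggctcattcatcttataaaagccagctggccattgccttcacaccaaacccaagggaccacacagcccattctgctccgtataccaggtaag
SPRR3: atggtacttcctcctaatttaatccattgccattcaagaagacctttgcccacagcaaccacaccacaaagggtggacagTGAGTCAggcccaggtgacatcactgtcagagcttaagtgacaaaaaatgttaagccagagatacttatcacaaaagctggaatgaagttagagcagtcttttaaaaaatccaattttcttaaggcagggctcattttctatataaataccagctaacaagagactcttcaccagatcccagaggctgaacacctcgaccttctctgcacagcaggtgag
CXCL8: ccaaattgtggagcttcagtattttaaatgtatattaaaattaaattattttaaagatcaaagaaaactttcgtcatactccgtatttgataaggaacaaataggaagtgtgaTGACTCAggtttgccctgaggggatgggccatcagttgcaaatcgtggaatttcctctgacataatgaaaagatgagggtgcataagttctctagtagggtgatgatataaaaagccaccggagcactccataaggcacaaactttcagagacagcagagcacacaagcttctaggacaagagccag
The motif begins 141 and 111 bases before the start of *SPRR1B*, and 108, 170 and 137 bases before that of *SPRR1A*, *SPRR3* and *CXCL8*. It is present in 7.71% of 35116 promoter windows of this length. Of the genes called lower, 53 matched a window by symbol and 13 of these held the motif (24.5%). Of the genes called higher, 29 matched and 1 held it (3.45%). Of 8 SPRR genes matched, 6 held it, among them members that did not pass between the siRNAs. The motif was chosen after the values were seen, and a match describes the letters of the window only.

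Other genes were lower with siTDRD9-2 than in both other groups, some of them at part of their probe sets only. *SUB1*, for a coactivator of RNA polymerase II, fell at 3 of 5 probe sets, and the strongest gave 7.22, 7.21 and 7.25 with siTDRD9-2, against 8.48, 8.68 and 8.58 with siTDRD9-1 and 8.49, 8.23 and 8.59 with siControl (difference -1.35, adjusted p = 0.000121). Its brightest probe set, at 12.25, 12.25 and 12.29 with siTDRD9-2 and 12.22, 12.15 and 12.25 with siTDRD9-1, differed by 0.06 (adjusted p = 0.757), so the probe sets of this gene do not read alike. *SELENOT*, for an endoplasmic reticulum selenoprotein, passed the FDR at 4 of 4 probe sets, by -0.94 to -1.17, and *TFPI*, for the inhibitor of tissue factor, at 3 of 3, by -0.77 to -1.14. Against siTDRD9-1, the lysosomal disease gene *CLN6* was lower by 1.40 and 1.18 at its 2 probe sets. *DDAH1*, for an enzyme that degrades methylarginines, was lower by 1.29 at 1 of 3 probe sets (the others -0.51 and -0.55, adjusted p = 0.071 and 0.162). *CEACAM5*, the carcinoembryonic antigen gene, was lower by 1.10 to 1.32 at 3 of 3. At 1 of the probe sets of *CEACAM5*, siControl lay between and neither siRNA passed 0.01 against it (adjusted p = 0.0402 for the siTDRD9-2 cultures, 0.0183 for the siTDRD9-1 cultures). *OSTM1*, for a partner of a lysosomal chloride transporter, was lower by 1.44 at a probe set near 5 in the siTDRD9-2 cultures (4.74, 5.13 and 4.60, against 6.42, 6.30 and 6.07 with siTDRD9-1), and its brightest probe set differed by -0.32 (adjusted p = 0.0838).

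Several regulatory and matrix genes belonged to the same side. *KLF2*, for a Krüppel-like transcription factor, gave 7.06, 6.84 and 7.40 with siTDRD9-2, against 8.65, 8.77 and 8.89 with siTDRD9-1 and 8.15, 8.27 and 8.70 with siControl (difference -1.67, adjusted p = 0.000426; second probe set -0.90, adjusted p = 0.0115). The siTDRD9-2 cultures did not overlap with any other. *JCAD*, for a protein of cell junctions, was lower than with siTDRD9-1 by 1.47 (adjusted p = 0.000932). *COL4A5*, for a basement membrane collagen chain, was lower by 0.90, *FST*, for the activin-binding protein follistatin, by 0.86, and *JAG1*, for a NOTCH ligand, by 0.77. The adjusted p were 0.00121, 0.000616 and 0.00266, and *JAG1* reached up to 0.0137 when 1 culture was left out (siTDRD9-2 culture 1 or 2, siTDRD9-1 culture 1 or 2). *COL4A5* passed at 2 of its 3 probe sets, and the other differed by -0.03 (adjusted p = 0.922).

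Genes that rose with siTDRD9-2 alone included secreted and scaffold proteins. *AKAP12*, for a scaffold of protein kinases, gave 8.77, 8.39 and 8.61 with siTDRD9-2, against 7.29, 7.57 and 7.32 with siTDRD9-1 and 7.42, 7.28 and 7.89 with siControl (difference 1.19, adjusted p = 0.00154, and up to 0.0115 with 1 culture left out). Its other probe set differed by 1.22 (adjusted p = 0.00214, and 0.0112 without siTDRD9-1 culture 2). *CCN5*, for a secreted matricellular protein, gave 7.57, 7.50 and 7.44 with siTDRD9-2, against 6.16, 6.13 and 5.96 with siTDRD9-1 and 6.38, 6.39 and 6.49 with siControl (difference 1.42, adjusted p = 9.3e-05). In both genes the siTDRD9-2 cultures were above all others. *CCDC80*, for another extracellular matrix protein, had the largest positive difference, 1.75, at a dim probe set with 4.31, 4.84 and 4.65 with siTDRD9-2 and 2.91, 2.82 and 2.83 with siTDRD9-1. Its brightest probe set differed by 0.67 (adjusted p = 0.0309). The gap junction gene *GJA5* was higher than with siTDRD9-1 by 1.10 and 1.04 at its 2 probe sets and the small GTPase gene *RRAD* by 1.04.

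*ZFR*, *GCC2* and *PAG1* differed between the siRNAs at each of their probe sets but not on the same side of siControl. *ZFR*, for a zinc finger RNA-binding protein, differed by 0.99 to 1.32 at 6 of 6 probe sets, all past the FDR. At its brightest probe set the cultures gave 11.15, 10.99 and 10.88 with siTDRD9-2, 9.72, 9.94 and 9.89 with siTDRD9-1 and 10.88, 11.07 and 11.12 with siControl, a fall with siTDRD9-1 (-1.17 against siControl). At the next brightest they gave 9.74, 9.75 and 9.93 with siTDRD9-2, 8.58, 8.34 and 8.54 with siTDRD9-1 and 8.40, 8.52 and 8.17 with siControl, a rise with siTDRD9-2 (1.44). The direct difference was thus alike over the gene while the place of siControl changed with the probe set. *GCC2*, for a golgin of the trans-Golgi network, differed by 0.94 to 1.25 at 4 of 4 probe sets, with 1.57 against siControl with siTDRD9-2 and 0.63 with siTDRD9-1 at the brightest, and 0.31 with siTDRD9-2 and -0.71 with siTDRD9-1 at the next. *PAG1*, for an adaptor that recruits the kinase CSK to membranes, differed by 0.85 to 1.42 at 4 of 4. At its brightest probe set it passed against siControl with siTDRD9-1 alone (-0.64, adjusted p = 0.00289), and at the other 3 with siTDRD9-2 alone (0.63, 0.79 and 0.85).

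Several genes that passed against siControl with siTDRD9-1 alone, as lower, moved at most of their probe sets. Others of this kind did not. *POMP* passed between the siRNAs at 1 of 3 probe sets, with -0.04 at the brightest (adjusted p = 0.83), and *THRB* at 3 of 7. *NEK7*, for a mitotic kinase that also serves the inflammasome, gave 10.75, 10.50 and 10.39 with siTDRD9-2, against 9.34, 9.39 and 9.18 with siTDRD9-1 and 10.23, 10.44 and 10.45 with siControl. The difference was 1.24 (standard error 0.113, adjusted p = 0.000359), and all 3 probe sets were called. *TRIM37*, for a ubiquitin ligase, differed by 0.93 to 1.30 at 4 of 4 probe sets, *RINT1*, for a protein of vesicle tethering, by 0.97 and 1.06 at 2 of 2, and *CCDC50* by 0.27 to 1.29 at 7, of which 5 passed. *IGFBP3*, for the main binding protein of insulin-like growth factors in blood, gave 11.56, 11.41 and 11.20 with siTDRD9-2, against 10.06, 10.15 and 9.51 with siTDRD9-1 and 11.22, 11.33 and 11.18 with siControl (difference 1.48, adjusted p = 0.000538). The siTDRD9-1 cultures were below all others. A second probe set also differed by 1.48, but with siControl between (0.81 above it with siTDRD9-2, adjusted p = 0.0062). The motor gene *KIF3B* was higher with siTDRD9-2 by 1.05 at its brightest probe set, the DNA-binding protein gene *TRNP1* by 1.24 at its called probe set and the homeobox gene *MKX* by 1.14. *MKX* fell against siControl with both, by 0.68 with siTDRD9-2 and by more with siTDRD9-1 (adjusted p = 4.54e-05).

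Genes that rose with siTDRD9-1 alone were led by *SPINK1*, which encodes a secreted trypsin inhibitor. It gave 3.90, 3.93 and 3.89 with siTDRD9-2, against 5.83, 6.35 and 5.10 with siTDRD9-1 and 4.07, 3.83 and 3.82 with siControl (difference -1.85, standard error 0.232, adjusted p = 0.00123, and 0.0112 with the 6 arrays alone). The siTDRD9-1 cultures lay far above the rest and were also the most spread. *SAT1*, for the enzyme that acetylates polyamines, gave 9.42, 9.65 and 8.95 with siTDRD9-2, against 10.74, 10.98 and 10.44 with siTDRD9-1 and 9.34, 9.62 and 9.26 with siControl (difference -1.38, adjusted p = 0.00161, and 0.0112 with the 6 arrays alone). *TFF1*, a secreted trefoil peptide gene, gave 10.67, 10.83 and 10.54, against 11.84, 11.93 and 11.45 with siTDRD9-1 and 10.72, 10.98 and 10.74 with siControl (difference -1.06, adjusted p = 0.00133, and 0.0103 without siTDRD9-1 culture 1). In each of these, the siTDRD9-2 and siControl cultures overlapped. The prostaglandin synthase gene *PTGS2* was lower with siTDRD9-2 than with siTDRD9-1 by 1.17, the adhesion gene *MCAM* by 1.12, the sterol transporter gene *GRAMD1B* by 1.14 and the mucin gene *MUC13* by 1.26 at its called probe set. Their adjusted p were 0.00538, 0.000414, 0.00209 and 0.000426, and those of *PTGS2* and *GRAMD1B* were 0.0181 and 0.0134 with the 6 arrays alone.

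A last set had siControl between both siRNAs. *FKBP14*, for a prolyl isomerase of the endoplasmic reticulum that acts on collagen, gave 5.20, 5.25 and 5.33 with siTDRD9-2, against 6.95, 6.91 and 6.56 with siTDRD9-1 and 6.33, 6.25 and 6.18 with siControl. This probe set differed by -1.55 (adjusted p = 0.0001), and the other 2 by -1.76 and -1.52. Both siRNAs passed against siControl at this probe set only, and siTDRD9-2 alone at the other 2. *RDM1*, for a protein with a RAD52 motif, gave 4.09, 4.06 and 4.02, against 5.59, 5.81 and 5.33 with siTDRD9-1 and 4.88, 4.96 and 4.88 with siControl (difference -1.52, adjusted p = 0.000117), and 7 of its 9 probe sets passed, 2 of them also in opposite directions against siControl. *ESAM*, an adhesion gene of cell junctions, gave 6.82, 6.47 and 6.87, against 7.97, 8.12 and 8.05 with siTDRD9-1 and 7.26, 7.40 and 7.30 with siControl (difference -1.33, adjusted p = 0.000255), and -0.20 at its second probe set (adjusted p = 0.388). In these 3 genes the groups were fully apart. *NEDD9*, for a scaffold of focal adhesions, showed the opposite order, with 6.24, 6.09 and 6.16, against 4.74, 5.12 and 4.77 with siTDRD9-1 and 5.30, 5.48 and 5.81 with siControl (difference 1.29, adjusted p = 0.000643), although neither siRNA passed 0.01 against siControl. Between the siRNAs, *NEDD9* passed at 2 of its 4 probe sets, which ranged from 0.19 to 1.29. *C2CD4A* differed by -1.53 (adjusted p = 0.000538) and passed against siControl with siTDRD9-1 alone. *TLL1*, which codes for a procollagen-processing protease, differed by -1.43 (adjusted p = 0.000761), and neither siRNA passed against siControl there. It passed at 1 of its 5 probe sets, which ranged from -1.43 to 0.21.

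Signaling and inflammatory genes of this last set varied more between cultures. *CXCL8*, for the neutrophil chemokine interleukin 8, gave 6.90, 6.75 and 6.40 with siTDRD9-2, against 8.65, 8.85 and 7.86 with siTDRD9-1 and 7.67, 7.99 and 7.47 with siControl (difference -1.77, standard error 0.231, adjusted p = 0.00154). It was past 0.01 in neither the fit of 6 arrays (0.0108) nor the fit without siTDRD9-1 culture 1 (0.0115). Of 27 NF-kB chemokine and cytokine genes, it alone passed, beside 1.27% of all genes as lower, and the median was -0.05. *EGR1*, an immediate early transcription factor gene induced by MAPK signaling, gave 5.59, 4.61 and 5.29 at its most changed probe set, against 6.47, 6.44 and 7.04 with siTDRD9-1 and 5.97, 6.09 and 6.29 with siControl (difference -1.49, adjusted p = 0.00351, and 0.0209 with the 6 arrays alone). Its adjusted p was up to 0.0135 when siTDRD9-1 culture 1 or 3 was left out. *EGR1* passed at 3 of 6 probe sets, and the others differed by -0.16, -0.30 and -0.56 (adjusted p = 0.584, 0.139 and 0.072). In either gene the siTDRD9-2 cultures were below all others, and for *CXCL8* the siTDRD9-1 and siControl cultures overlapped. *IL1RL1*, for the interleukin 33 receptor, *HAL*, for histidine ammonia-lyase, and *HOPX*, for a homeodomain cofactor of lung and gut epithelium, differed by -1.84, -1.51 and -1.44 at their most changed probe sets. *IL1RL1* passed at 1 of 5 probe sets, with -1.48 at the brightest (adjusted p = 0.0134), *HAL* at 1 of 3 and *HOPX* at 3 of 3. Their adjusted p were 0.00729, 0.00724 and 0.00848, and up to 0.038, 0.0398 and 0.0392 when 1 culture was left out, any siControl culture included, so their calls rest on the full set of arrays.

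Of 32 MAPK output and feedback genes, *EGR1* alone passed, as lower, at its brightest probe set (-1.15, adjusted p = 0.00993), beside 1.27% of all genes. That count of 1 was 0 with the 6 arrays alone, with median centring and without siTDRD9-2 culture 1 or 2, siTDRD9-1 culture 1 or 2, or a siControl culture, 2 without siTDRD9-2 culture 3, 3 with the replicate number as a block, 6 with a variance trend and 12 with array weights. With an unadjusted p under 0.05, 2 were higher and 13 lower, where 10.3% and 11.0% of all genes were. A negative difference was found in 27 of 32, beside 9929 of 18132 over all genes, and the list median was -0.18. The phosphatase gene *DUSP6* differed by -0.57 and the AP-1 subunit gene *FOSL1* by -0.52, with adjusted p of 0.0178 and 0.0117. The mean level of the list was 8.32, 8.25 and 8.26 with siTDRD9-2, 8.52, 8.53 and 8.44 with siTDRD9-1 and 8.49, 8.62 and 8.54 with siControl.

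Several interferon-induced genes were lower with siTDRD9-2 than with siTDRD9-1. Interferons act through surface receptors, IFNAR1 with IFNAR2 for type I, and switch on antiviral genes. Of 40 measured genes of the interferon list, 0 were higher and 6 lower at an FDR of 0.01, beside 1.11% and 1.27% of all genes. With an unadjusted p under 0.05, 0 were higher and 20 lower, beside 10.3% and 11.0% of all genes. The difference was negative in 34 of 40, and in 9929 of 18132 over all genes. The median was -0.26 against -0.02 over all genes. The mean level of the list was 6.02, 6.05 and 5.92 with siTDRD9-2, 6.30, 6.41 and 6.18 with siTDRD9-1 and 6.04, 6.09 and 6.07 with siControl. The siTDRD9-1 cultures were thus above every other culture, and the siTDRD9-2 and siControl cultures overlapped. The count of 6 depends on single arrays: it was 0 with the 6 arrays alone and without siTDRD9-1 culture 1, 1 without siTDRD9-2 culture 1 and without siTDRD9-1 culture 2, 2 to 4 without siTDRD9-2 culture 2 or 3 or any siControl culture, 8 without siTDRD9-1 culture 3, and 14 with array weights. The median stayed between -0.38 and -0.20 in all settings.

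The members that were lower with siTDRD9-2 than with siTDRD9-1 acted at several steps. *ISG15*, which encodes a ubiquitin-like protein attached to other proteins after interferon, gave 9.91, 10.04 and 9.80 with siTDRD9-2, against 10.65, 10.79 and 10.40 with siTDRD9-1 and 10.19, 10.48 and 10.20 with siControl (difference -0.70, adjusted p = 0.00747). *ISG20*, for an RNA exonuclease, gave 7.77, 7.91 and 7.75, against 8.68, 8.90 and 8.31 with siTDRD9-1 and 8.33, 8.60 and 8.22 with siControl (difference -0.82, adjusted p = 0.00783). Both had every siTDRD9-2 culture below the others, and both overlapped between siTDRD9-1 and siControl. The RNA sensor gene *RIGI* was lower with siTDRD9-2 than with siTDRD9-1 by 0.70 (adjusted p = 0.00225) and *IFI35* by 0.67 (adjusted p = 0.00336). The transcription factor gene *IRF7* was lower by 0.63 (adjusted p = 0.00191) and *OAS1*, whose product makes the activator of RNase L, by 0.57 (adjusted p = 0.00677). At the called probe set of *RIGI*, siControl lay between and neither siRNA passed 0.01 against it (adjusted p = 0.0221 with siTDRD9-2, 0.0349 with siTDRD9-1). At another probe set, *OAS1* gave 5.71, 5.72 and 6.21, against 7.11, 7.13 and 6.97 with siTDRD9-1 and 6.85, 6.87 and 7.19 with siControl (-1.19, adjusted p = 0.00101). The GTPase gene *MX1* differed by -0.86 (adjusted p = 0.104) and *IFIT1* by -0.27 (adjusted p = 0.305).

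The receptor genes did not move as a set. *IFNAR1* passed at 4 of 4 probe sets, by -0.76 to -1.31, and the most changed gave 5.77, 5.77 and 5.60 with siTDRD9-2, against 7.08, 7.10 and 6.90 with siTDRD9-1 and 6.34, 6.56 and 6.78 with siControl (adjusted p = 0.000355). The groups were apart, with siControl between. *IFNLR1*, for the type III receptor chain, differed by -1.35 (adjusted p = 0.00299, and 0.0208 with the 6 arrays alone). *IFNAR2*, *IFNGR1*, *IFNGR2* and *IL10RB* differed by 0.33, 0.11, -0.15 and -0.46, with adjusted p of 0.0571, 0.553, 0.343 and 0.0477. The receptor genes were named after their values were seen.

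The promoters of *ISG15* (chr1:1013247-1013546) and *ISG20* (chr15:88638766-88639065), both on the plus strand and from the same source and build, are shown for the element through which interferon acts. Capitals mark GAAA followed by any 2 bases and GAAA, the core of the interferon-stimulated response element, searched on both strands.
ISG15: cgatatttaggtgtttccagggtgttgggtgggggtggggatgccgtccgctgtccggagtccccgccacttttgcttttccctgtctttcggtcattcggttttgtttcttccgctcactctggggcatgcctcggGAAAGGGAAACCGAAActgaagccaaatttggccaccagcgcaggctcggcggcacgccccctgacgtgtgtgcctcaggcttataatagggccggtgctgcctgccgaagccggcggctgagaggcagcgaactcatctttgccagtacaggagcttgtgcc
ISG20: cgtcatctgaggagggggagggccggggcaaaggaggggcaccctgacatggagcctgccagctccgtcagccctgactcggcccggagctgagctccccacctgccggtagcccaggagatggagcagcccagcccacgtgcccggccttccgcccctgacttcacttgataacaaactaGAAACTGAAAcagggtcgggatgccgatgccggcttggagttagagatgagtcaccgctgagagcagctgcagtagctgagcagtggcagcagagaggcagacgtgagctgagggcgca
*ISG15* holds overlapping matches that begin 113 and 107 bases before the start, and *ISG20* a match that begins 69 bases before it. The core is present in 3.57% of all 35116 windows and in 21 of the 35 windows matched to the interferon list. Of the genes called lower, 1 of 53 windows held it, and of those called higher 0 of 29.

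**Figure D4:**
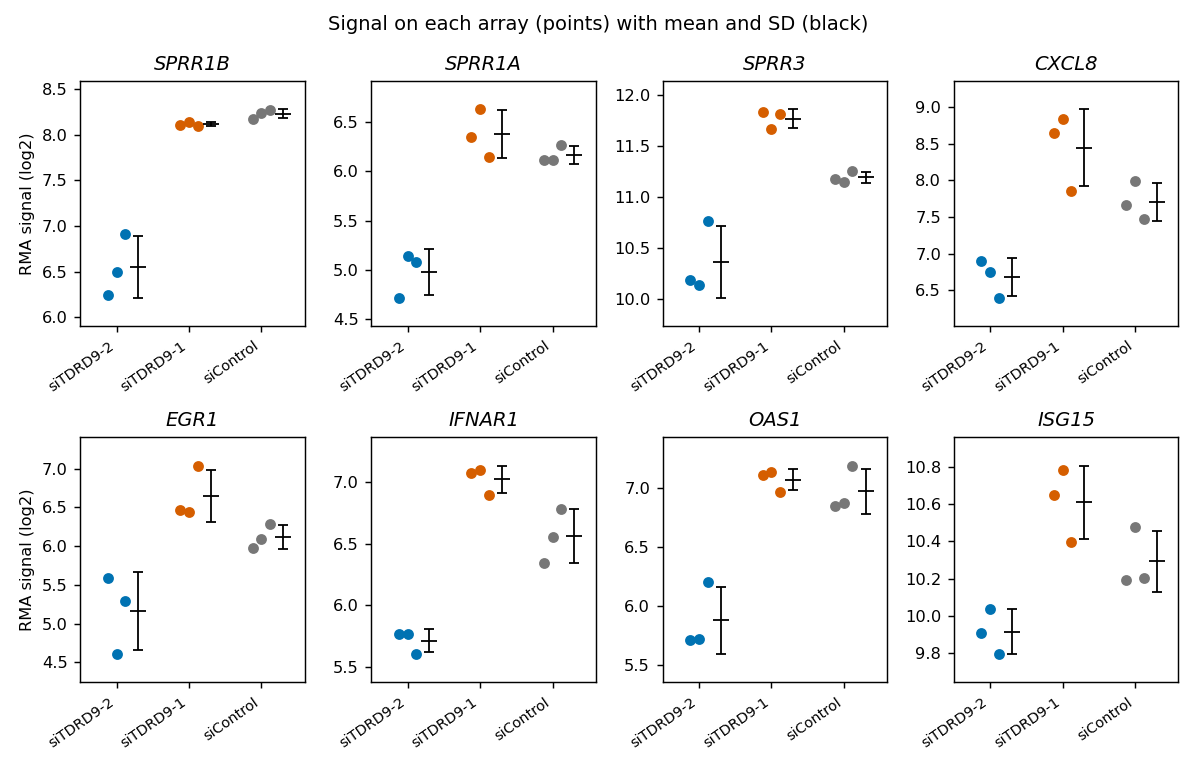
Log2 signal on each array (points) with the mean and SD of 3 arrays (black) for envelope, inflammatory and interferon genes, each at its called probe set of largest difference (*ISG15* at its single one), with siTDRD9-2, siTDRD9-1 and siControl from left to right. siTDRD9-2 is the lowest group in all 8 panels, and *SPRR1B*, *SPRR1A* and *OAS1* have siTDRD9-1 near siControl, while *CXCL8*, *EGR1* and *IFNAR1* have siControl between.

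Cell cycle and DNA damage genes differed singly rather than as lists. The counts below stand beside 1.11% of all genes higher and 1.27% lower at an FDR of 0.01. *MAD2L1*, for the spindle checkpoint protein MAD2, gave 10.73, 10.57 and 10.51 with siTDRD9-2, against 9.63, 9.68 and 9.83 with siTDRD9-1 and 10.88, 10.87 and 10.83 with siControl (difference 0.89, standard error 0.0929, adjusted p = 0.000531). It was the single member of 43 G2 and M phase genes that passed, with a median of -0.02. Of 49 DNA replication genes, 3 were higher and 2 lower, with a median of 0.00. *RRM1*, for the large subunit of ribonucleotide reductase, was higher by 0.69 (adjusted p = 0.00101) and passed at 4 of 4 probe sets, while *WDHD1* and *RFC5*, for a replisome scaffold and a clamp loader subunit, passed at their brightest probe sets, by 0.70 and 0.53 (adjusted p = 0.00299 and 0.00817, and 0.0103 and 0.0292 with the 6 arrays alone). The other probe set of *WDHD1* differed by 0.14 (adjusted p = 0.654), and the 4 probe sets of *RFC5* ranged from -0.81 to 0.53, with an adjusted p of 0.201 for their mean, so no direction is given for that gene. The polymerase subunit genes *POLE2* and *POLD2* were lower by 0.50 and 0.43 (adjusted p = 0.00909 and 0.00986, and 0.0252 and 0.035 with the 6 arrays alone). The count of higher genes was 1 without siTDRD9-2 culture 1 or 2 or siTDRD9-1 culture 1, and that of lower genes 0 whichever culture was left out and with the median of each array set equal. *RRM1* and *MAD2L1* fell with siTDRD9-1 against siControl, by 0.68 and 1.15. Of 37 double strand break repair genes, *NHEJ1*, for the end-joining factor XLF, alone passed (0.71, adjusted p = 0.00105), with a median of 0.02. No linker histone gene of 7 and no BCL2 family gene of 19 passed in limma, with medians of 0.05 and 0.05. At an unadjusted p under 0.05, 1 and 4 were higher and 1 and 2 lower, beside 10.3% and 11.0% of all genes.

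Targets of YAP, the coactivator of the Hippo pathway, had 3 higher members and 1 lower of 25, with a median of 0.01. Of all genes, 1.11% were higher and 1.27% lower at the same FDR. Beside *IGFBP3*, *AMOTL2*, for an angiomotin that holds YAP back, was higher by 0.86, and *CCN1*, for a secreted matricellular protein, gave 8.31, 8.13 and 8.51 with siTDRD9-2, against 7.57, 7.56 and 7.51 with siTDRD9-1 and 8.79, 8.70 and 8.82 with siControl (0.77, adjusted p = 0.00178, and 0.0126 with the 6 arrays alone). *CCN1* was below siControl with either siRNA and did not overlap between any groups. *F3*, the tissue factor gene, was lower by 0.52. The adjusted p of *AMOTL2* and *F3* were 0.00602 and 0.0084, and 0.0288 and 0.0272 with the 6 arrays alone, in which 1 member was higher and 0 lower. No member was lower in limma whichever culture was left out. Of 25 TGF beta targets, *SMAD7* and *BAMBI*, which both dampen the pathway, were higher by 0.62 each, and *FST* was lower, with a median of 0.00 (adjusted p of *SMAD7* and *BAMBI* 0.00564 and 0.00985, and 0.026 and 0.037 with the 6 arrays alone). Whichever culture was left out, 0 or 1 members were higher. *SMAD7* passed at 1 of its 3 probe sets, which ranged from 0.32 to 0.62, and their mean had an adjusted p of 0.0758 in limma.

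NOTCH genes had 0 higher and 3 lower members of 24, beside 1.11% and 1.27% of all genes, with a median of -0.09. The count of 3 was 0 without siTDRD9-2 culture 1 or 2 or siTDRD9-1 culture 1 or 2, and 1 without siTDRD9-1 culture 3 and with the 6 arrays alone. These were the ligand genes *JAG1* and *DLL3*, the second an inhibitory ligand, and the target gene *HES4*, lower by 0.77, 0.74 and 0.61. *JAG1* passed at 1 of its 6 probe sets, which ranged from -0.77 to 0.10. *DLL3* and *HES4* had adjusted p of 0.00578 and 0.00387, and of 0.0235 and 0.0182 with the 6 arrays alone. *CD44*, for the hyaluronan receptor, was the single member of 19 WNT targets that passed, with a median of -0.07. It gave 10.19, 10.04 and 10.18 with siTDRD9-2, against 10.78, 10.84 and 10.85 with siTDRD9-1 and 10.39, 10.48 and 10.54 with siControl (-0.69, adjusted p = 0.00121). siControl lay between without overlap, and 9 of the 10 probe sets of the gene passed.

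Lung lineage and secretory genes had 0 higher and 4 lower members of 34, beside 1.11% and 1.27% of all genes, with a median of -0.12. The 4 were *HOPX*, *CEACAM5*, *TFF1* and *CEACAM6*, a relative of *CEACAM5*, which was lower by 0.64 (adjusted p = 0.00265, and 0.014 with the 6 arrays alone). The count was 2 with the 6 arrays alone, without siTDRD9-2 culture 1 and without siTDRD9-1 culture 2, and 1 without siTDRD9-1 culture 1. *TFF1* differed from siControl with siTDRD9-1, the CEACAM genes with siTDRD9-2 and *HOPX* with neither, so the members that passed were not all moved by the same siRNA. Of 29 epithelial genes none passed in limma, with a median of -0.05. With an unadjusted p under 0.05, 3 were higher and 7 lower, beside 10.3% and 11.0% of all genes. Of 26 mesenchymal genes, *SNAI2*, for the transcription factor Slug, alone passed (0.61, adjusted p = 0.00513, and 0.0179 with the 6 arrays alone, and no longer past 0.01 when any siTDRD9-2 or siTDRD9-1 culture or siControl culture 2 was left out), with a median of -0.04. Extracellular matrix and integrin genes had 1 higher, *MATN2*, for matrilin 2 (0.72, adjusted p = 0.00531), and 2 lower, *COL4A5* and the collagen receptor gene *ITGA2* (-0.57, adjusted p = 0.00379), of 33, with a median of -0.01. With the 6 arrays alone, the adjusted p of *MATN2* and *ITGA2* were 0.0101 and 0.019. *MATN2* no longer passed when any siTDRD9-2 or siTDRD9-1 culture or siControl culture 2 was left out, and *ITGA2* without siTDRD9-2 culture 1 or 2 or siTDRD9-1 culture 1 or 2.

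Beside 1.11% of all genes higher and 1.27% lower, the remaining lists each had a single member past the FDR. It was *PCK2*, for mitochondrial PEPCK (0.54), among 45 unfolded protein and ATF4 stress genes (median 0.12), *HMOX1*, for heme oxygenase 1 (0.88), among 27 NRF2 targets (median 0.09), and *ULK1*, for the kinase that starts autophagy (0.59), among 33 lysosome and autophagy genes (median 0.08), each higher. *BNIP3*, for a hypoxia-induced mitophagy receptor (-0.71), was lower among 32 glycolysis and hypoxia genes (median 0.07). *TM7SF2*, for a sterol reductase (-0.58), was lower among 24 cholesterol synthesis genes (median -0.15). At an unadjusted p under 0.05, 0 of these 24 were higher and 9 lower, beside 10.3% and 11.0% of all genes. *MST1R*, for the receptor RON (-0.98), was lower among 27 receptor tyrosine kinases (median -0.02). The adjusted p of the 6 genes named here were between 0.00184 and 0.00758, and all were above 0.01 with the 6 arrays alone (0.0119 to 0.034). *PCK2*, *ULK1* and *TM7SF2* no longer passed whichever culture was left out, *BNIP3* without siTDRD9-1 culture 1 or 2, *HMOX1* without siTDRD9-2 culture 1 or 2, and *MST1R* without culture 1 of either siRNA. *MST1R* passed at 1 of its 4 probe sets, which ranged from -0.98 to -0.01, *TM7SF2* at 1 of 5 and *BNIP3* at 1 of 2. Markers of other cell types were mostly dim, with median signals over the list members of 3.30 to 4.55, against 6.39 over all genes. None of 9 colon, 9 fibroblast and 8 endothelial markers passed in limma, with medians of 0.10, -0.03 and -0.16. With an unadjusted p under 0.05, 0 were higher and 1, 2 and 1 lower, beside 10.3% and 11.0% of all genes. Of 9 leukocyte markers, *CD68*, a lysosomal membrane protein gene, passed (difference -1.01, adjusted p = 0.000989, with 8.30, 8.22 and 8.63 with siTDRD9-2, against 9.39, 9.44 and 9.35 with siTDRD9-1 and 9.05, 9.33 and 9.31 with siControl), and the defining gene *PTPRC* was low, at 3.47 with siTDRD9-2 and 3.51 with siTDRD9-1, with a list median of -0.15.

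**Figure D5:**
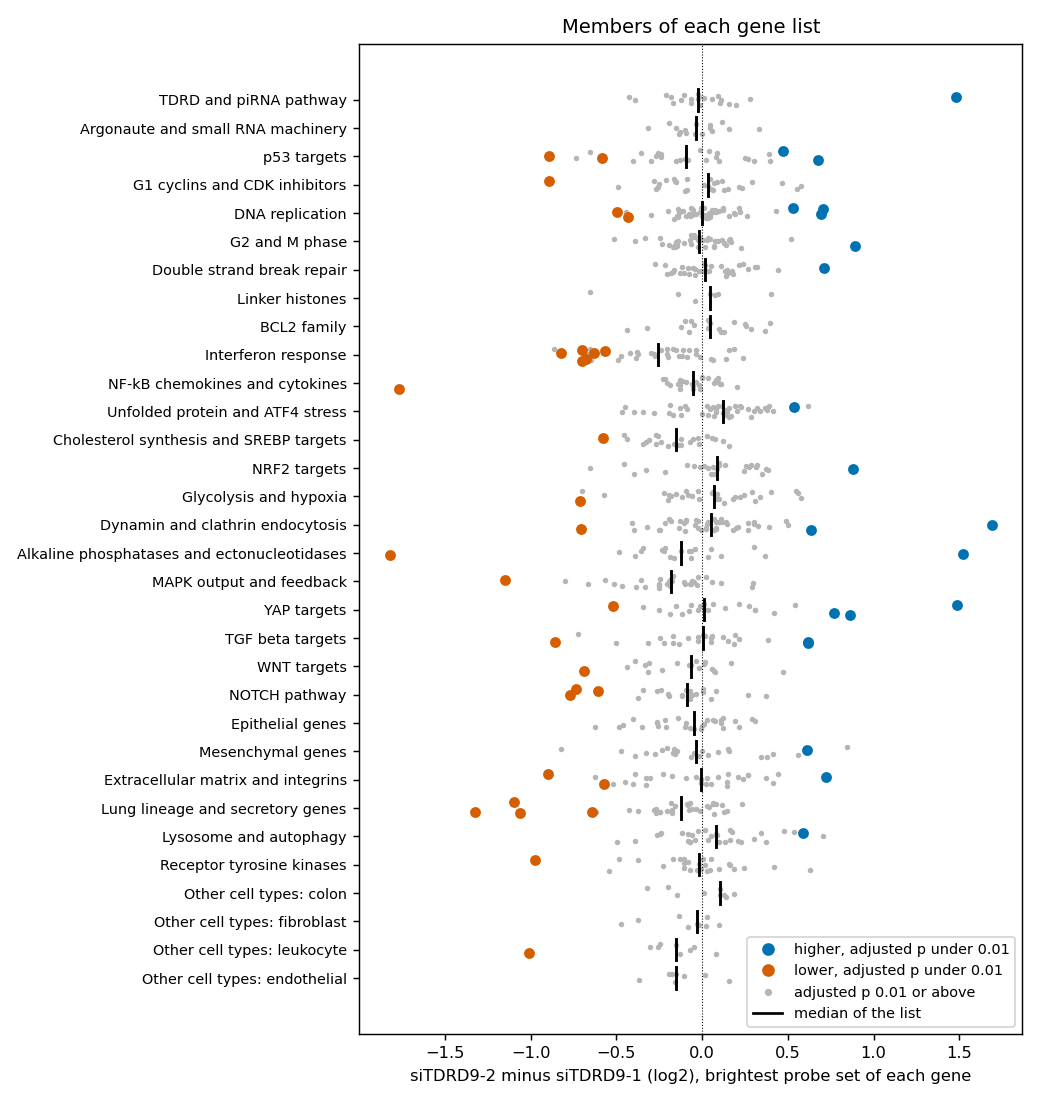
Difference siTDRD9-2 minus siTDRD9-1 (x axis, log2) of every measured member of each gene list at its brightest probe set, with members past an FDR of 0.01 in blue (higher) or orange (lower) and the list median as a black bar. The interferon list has the lowest median (-0.26) and 6 lower members, and most other medians lie within 0.15 of 0.

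The calls could be checked within genes, since 82 of the 99 called genes had more than 1 probe set. In 30 genes at least 2 probe sets were called, and in 13 every probe set was, namely *AKAP12*, *ALPP*, *CEACAM5*, *CLN6*, *ENTPD3*, *FKBP14*, *GJA5*, *GRAMD1B*, *HOPX*, *IGFBP3*, *MCAM*, *NEK7* and *ONECUT2*. For 69 genes there were 173 further probe sets that were not called. Of these, 154 differed in the direction of the call, 50 at an FDR under 0.01, and 0 passed in the opposite direction. Their median difference in the called direction was 0.51, with quartiles of 0.22 and 0.85. Only 63 of the 99 genes were called at their brightest probe set, and 46 were when the probe sets of a gene were averaged first, 45 of them among the 99. Probe sets whose names mark probes shared with other transcripts made up 34.4% of the called and 29.2% of all tested probe sets.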

How the data were processed

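RNA of 9 NCI-H1993 cultures was hybridized to Affymetrix PrimeView arrays, 1 per culture. The deposited log2 values were made by the authors with RMA in Affymetrix Expression Console, which corrects background, gives all arrays the same distribution and summarizes probes into probe sets. They were used unchanged. The extraction text of the labels mentions a different cell line, and the titles of the samples were followed. Probe sets were matched to genes with the platform annotation, and 48 genes of the lists had no probe set of their own and were not analysed here.

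The 9 arrays were fitted as 3 groups with limma 3.58.1 in R 4.3.3 with empirical Bayes moderation, p-values of each comparison were adjusted by Benjamini-Hochberg over 49293 probe sets, and all adjusted p in the text come from limma. Calls required a 2-fold difference and an FDR under 0.01. A gene was called when a probe set assigned to it alone was called. Each list was read with 1 probe set per gene, the brightest (highest mean over 9 arrays), and counted at an FDR under 0.01. For single values, an exact permutation test was used.

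Genes were named when they were given markers, among the 15 largest differences in each direction, or among up to 4 members of a list past the FDR. All other genes, whether called themselves or compared with the named ones within a family, a receptor or a list, were picked after their values were seen. The members, the 32 lists and the rules were chosen with earlier results of these data known. Genes correlating with *TDRD9* were not given, because the arrays fall into 3 clusters. Promoters are those of RefSeq (GRCh38.p14), matched by symbol. As alternatives, the 6 siTDRD9 arrays were fitted alone, the replicate number was added as a block, and the variance model was given a trend or weights for arrays. Values were also centred on their medians or passed through cyclic loess, probe sets under a mean log2 signal of 5 were left out, the thresholds were changed, genes were averaged over their probe sets, and arrays were left out singly. The p-values measure the spread between 3 transfections of a single cell line, and their number limits the precision.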

Additional observations from a re-analysis of the deposited data

Results flagged for a closer look

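*FKBP14*, *RDM1*, *DNM1* and *ESAM* stand out because the effects of both siRNAs against siControl passed an FDR of 0.01 in opposite directions at 1 or 2 of their probe sets and the difference between them was itself called. *FKBP14*, at 1 of 3 probe sets, was lower than siControl with siTDRD9-2 (adjusted p = 0.000262 in limma) and higher with siTDRD9-1 by 0.55 on the log2 scale, a difference of -1.55 (adjusted p = 0.0001). *RDM1*, at 2 of 9 probe sets, changed by -0.85 with siTDRD9-2 and 0.67 with siTDRD9-1 at the more changed of them, a difference of -1.52. *DNM1* changed by 0.51 with siTDRD9-2 and -1.01 with siTDRD9-1 at its second probe set, a difference of 1.52. *ESAM*, at 1 of 2 probe sets, changed by -0.60 with siTDRD9-2 and 0.73 with siTDRD9-1, a difference of -1.33. The effects share the siControl arrays, and all cultures of each siRNA lay on its side of siControl.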

How the results depend on the processing

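No difference among the 151 called probe sets or the 70 named genes changed sign under any alternative. With the 6 siTDRD9 arrays alone, 63 probe sets were called lower and 274 passed an FDR of 0.01 without a fold minimum. That count was 1752 with a variance trend, 5693 with array weights and 1516 without dim probe sets. At an FDR under 0.05 and 1.5-fold, 1189 probe sets were called, 541 higher and 648 lower, for 733 genes, 324 higher and 411 lower. At an FDR under 0.001 and 2-fold there were 84, 32 higher and 52 lower, for 59 genes, 22 higher and 37 lower. When genes were averaged over probe sets, 46 genes were called, 19 higher and 27 lower. With 1 array left out, 114 to 181 probe sets were called, 46 to 61 higher and 58 to 135 lower, 274 to 743 passed the FDR alone, and 77 to 113 genes were called, 25 to 37 higher and 40 to 88 lower. *TDRD9* differed by 1.31 to 1.64. Same-numbered siTDRD9-2 and siTDRD9-1 arrays deviated from their group means with correlations of -0.10, 0.15 and 0.04, so the numbers were not taken to pair the samples. With the replicate number as a block, 158 probe sets were called, the 151 among them, 911 passed the FDR alone, and 8 of 70 named genes no longer passed 0.01. Of the named genes, 35 lost an FDR of 0.01 with the 6 arrays alone, 0 with array weights or a variance trend, 1 with cyclic loess and 2 with median centring, 16 to 33 with a single array left out, and 33 passed it in the fit of 6 arrays, the block and every fit with 1 array left out. Of 1088 counts of list members under the alternatives, 269 moved by more than 1.5 times. Dim probe sets limit what could be seen, since signals near the floor of the arrays compress differences.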
